A study of Caenorhabditis elegans with 12 samples.

Results

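Nucleotide excision repair removes bulky DNA lesions such as those made by UV-B, and the 9 genes described here encode the proteins that find such a lesion and cut the strand that carries it. They were chosen by name and sorted by branch: csb-1, csa-1 and uvs-1 act in transcription-coupled repair (TC-NER), xpc-1 and rad-23 in global-genome repair (GG-NER), and xpa-1, xpf-1, ercc-1 and xpg-1 in the core that both branches share. All 9 were found among the 46245 genes of the deposited table, all 9 are annotated as protein-coding, and all 9 were among the 12913 protein-coding genes that averaged at least 1 FPKM (fragments per kilobase of transcript, relative to all mapped fragments, so a level per length) and were tested. None of the 9 was listed at 0 in any library.

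Larvae of the nematode Caenorhabditis elegans at the first larval stage (L1) were synchronized, fed for 3 h, given UV-B at 60 mJ/cm2 or a mock treatment, and harvested whole 6 h later for RNA sequencing. The 4 groups were UV-treated larvae of the lin-52(n771) III strain, UV-treated larvae of the wild-type strain N2, mock-treated lin-52(n771) III larvae and mock-treated N2 larvae, with 3 ribosomal-RNA-depleted libraries each. LIN-52 is a subunit of the DREAM complex, a transcriptional repressor, and the comparisons ask what its mutation and UV-B each do to transcript levels. The mutant groups come from 1 mutant allele in 1 strain, and a library pools many larvae and all of their tissues, so that fewer cells of a type and less RNA per cell cannot be told apart.

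In TC-NER an RNA polymerase II stalled at a lesion is bound by the ATPase CSB-1, and CSA-1 and UVS-1 are brought to it; in GG-NER the lesion itself is bound by XPC-1 with its partner RAD-23. Both routes bring in TFIIH and XPA-1, after which XPF-1 with ERCC-1 cuts on one side of the lesion and XPG-1 on the other. In C. elegans, TC-NER is known as the main protection of larval somatic cells against UV, and GG-NER as that of the germline.

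FPKM sums were 1243647 to 1398489 per library, and the size factors used for scaling were 0.969 to 1.05. The share of FPKM on ribosomal RNA genes differed with the treatment, without overlap. It was 11.6 to 13.9% in the UV libraries and 14.7 to 22.6% in the mock libraries, highest in lin-52 mock libraries 2 and 4. Reads per library were not given in the sources used here. From the steps between low values, depth was estimated as 0.938 to 1.28 times that of N2 mock library 1. As a check of the labels, lin-52 itself averaged 11.1 scaled FPKM in UV-treated lin-52 larvae against 34.5 in UV-treated N2 larvae, and 7.32 in mock-treated lin-52 larvae against 24.3 in mock-treated N2 larvae. Its log2 fold change between the strains was -1.59 after UV and -1.66 without UV (limma, adjusted p = 5.56e-07 and 3.48e-07).

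UV-B raised csb-1 and uvs-1 in both strains far more than any other of the 9 genes, and raised both less in lin-52 larvae than in N2 larvae. The other TC-NER gene, csa-1, rose modestly with UV-B and was higher in lin-52 larvae than in N2 larvae with and without irradiation. In the GG-NER pair, xpc-1 fell after UV-B in both strains by similar amounts, whereas rad-23 rose in N2 larvae and passed no test in lin-52 larvae. The core genes xpa-1, ercc-1 and xpg-1 rose modestly in both strains, and xpf-1 passed the test in none of the 5 comparisons.

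**Figure D1:**
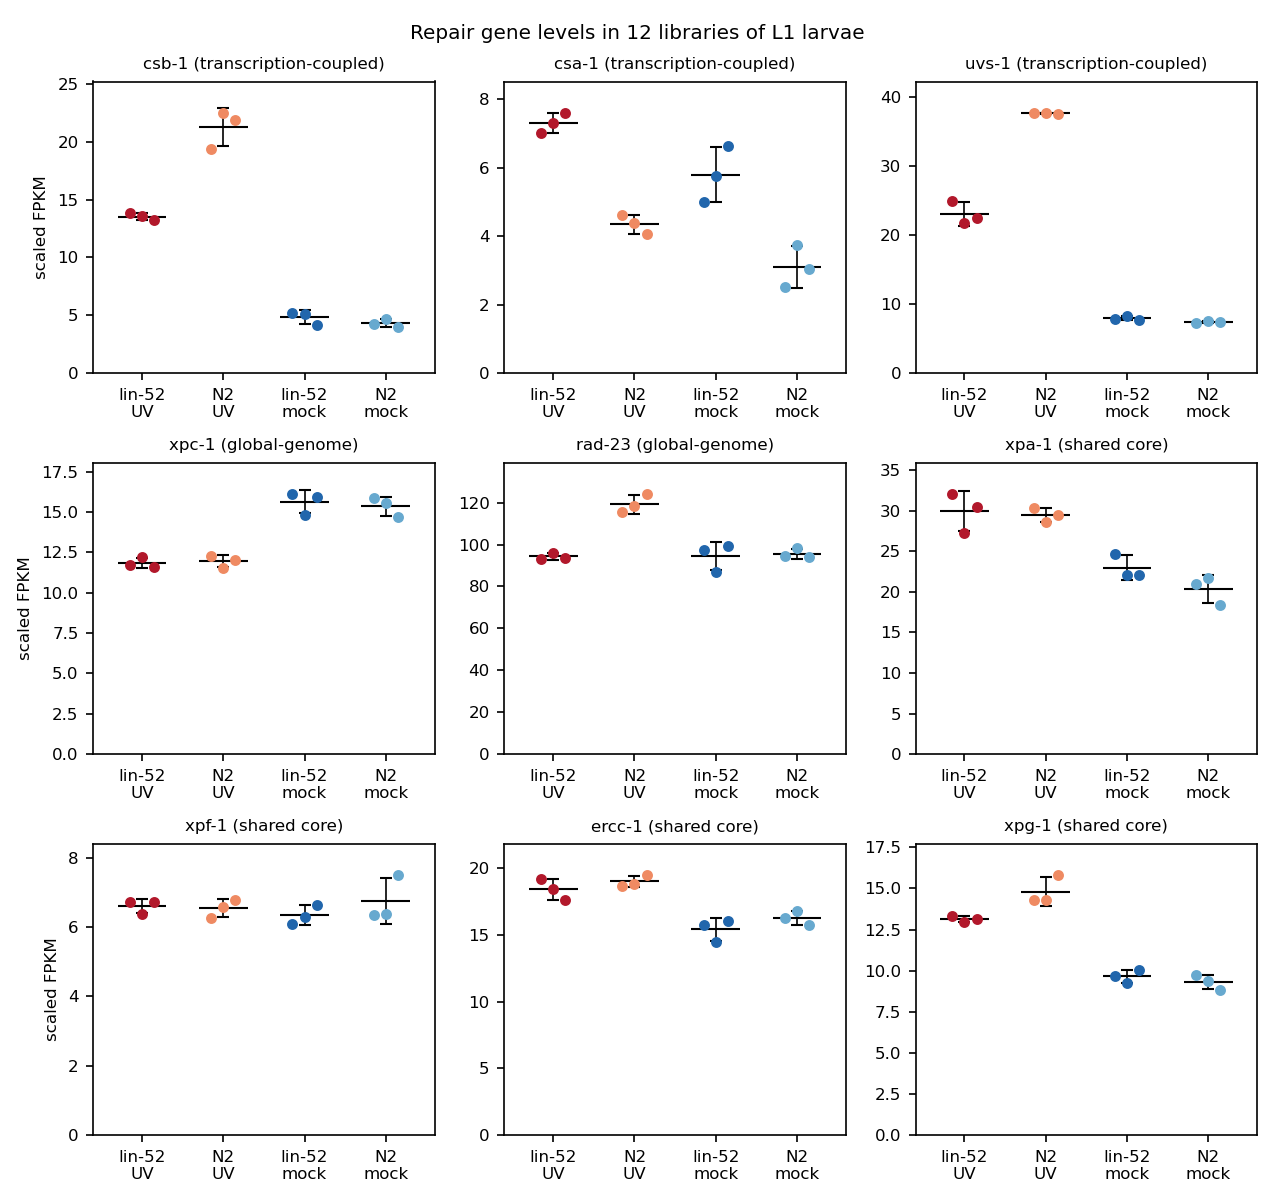
Scaled FPKM (vertical axis, starting at 0) of each of the 9 genes in the 12 libraries, by group (horizontal axis); points are libraries, the long bar is the group mean and the whiskers are 1 SD (n = 3). The csb-1 and uvs-1 panels show N2 UV above lin-52 UV and both above the mock groups, the csa-1 panel shows both lin-52 groups above both N2 groups, and the xpc-1 panel shows both UV groups below both mock groups.

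csb-1 (WBGene00000803, chromosome X, 15861294 to 15865918 on the minus strand of WBcel235) encodes the ATPase that recognises the stalled polymerase. It had 13.9, 13.6 and 13.2 scaled FPKM in the UV-treated lin-52 libraries and 4.15, 5.12 and 5.23 in the mock-treated ones, and 19.4, 21.9 and 22.5 in the UV-treated N2 libraries against 3.99, 4.26 and 4.67 in the mock-treated ones. Every UV library thus lay above every mock library, every N2 UV library lay above every lin-52 UV library, and the mock groups of the strains overlapped. The log2 change on UV was 1.40 ± 0.09 in lin-52 larvae and 2.18 ± 0.09 in N2 larvae (SE; limma on log2(scaled FPKM + 0.5), adjusted p = 1.04e-07 and 1.77e-09), and the group means stood at ratios of 2.80 and 4.95. The UV effect was smaller in lin-52 larvae by 0.78 ± 0.13 log2 units (difference of the UV effects -0.78, limma adjusted p = 0.00575). After UV csb-1 was lower in lin-52 than in N2 larvae (log2 fold change -0.63 ± 0.09, adjusted p = 0.000589 by limma), and without UV the difference was 0.15 with a 95% interval of -0.06 to 0.35.

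uvs-1 (WBGene00022812, chromosome V, 7801505 to 7804208, minus strand) is the worm counterpart of human UVSSA, which steadies CSB and helps to bring TFIIH to the stalled polymerase. It had 25.0, 21.7 and 22.5 scaled FPKM in the UV-treated lin-52 libraries against 7.84, 8.28 and 7.69 in the mock-treated ones, and 37.7, 37.7 and 37.6 in the UV-treated N2 libraries against 7.29, 7.60 and 7.46 in the mock-treated ones. The ranges of the 4 groups did not overlap, although the lowest lin-52 mock library, at 7.69, lay just above the highest N2 mock library, at 7.60. The log2 change on UV was 1.48 ± 0.06 in lin-52 larvae and 2.26 ± 0.06 in N2 larvae (limma, adjusted p = 1.51e-09 and 4.42e-11), with mean ratios of 2.91 and 5.06. As for csb-1, the UV effect was smaller in lin-52 larvae, by 0.78 ± 0.08 (difference of the UV effects -0.78, limma adjusted p = 0.000415). The strain difference after UV was -0.70 ± 0.06 (limma, adjusted p = 9.88e-06), and without UV it was 0.09 with an interval of -0.04 to 0.21.

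On the linear scale, UV added 8.71 FPKM to the mean level of csb-1 in lin-52 larvae and 17.0 in N2 larvae, so the mutants gained 51.3% of the N2 increase. For uvs-1 the additions were 15.1 FPKM in lin-52 larvae and 30.2 in N2 larvae, a gain of 50.1% of that in N2. The level of uvs-1 relative to csb-1 in the same library therefore stayed in a narrow band, at a mean ratio of 1.70 in lin-52 UV, 1.77 in N2 UV, 1.65 in lin-52 mock and 1.73 in N2 mock larvae. Across all 12 libraries the ratio had extremes of 1.499 and 1.94.

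In likeness of pattern csb-1 and uvs-1 also stood close. Likeness was measured as the root mean square difference of the 12 log2 values of a pair of genes, each centred on its own mean. By this measure uvs-1 was the gene in position 2 of the 12912 others ordered by distance from csb-1, at 0.10 log2 units, next to B0457.6 at a value that rounds to the same, and the size of the csb-1 pattern itself was 0.93. In the order around uvs-1, rop-1 and nfx-1 came first at 0.09 each and csb-1 stood at position 8. Distances of csb-1 from the other 7 repair genes were 0.66 (xpg-1) to 1.11 (xpc-1). All 12 points share the 2 treatments and 2 strains, so these values describe the pattern and were not tested.

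csa-1 (WBGene00008403, chromosome II, 9317551 to 9319726, minus strand) encodes the WD40-repeat protein that links the stalled polymerase to a CUL4-DDB1 ubiquitin ligase. It had 7.03, 7.31 and 7.61 scaled FPKM in the UV-treated lin-52 libraries against 4.61, 4.38 and 4.05 in the UV-treated N2 libraries, and 5.01, 5.76 and 6.64 in the mock-treated lin-52 libraries against 2.52, 3.73 and 3.05 in the mock-treated N2 libraries. All 6 lin-52 libraries lay above all 6 N2 libraries. The strain difference was 0.69 ± 0.13 log2 units after UV and 0.81 ± 0.13 without UV (limma, adjusted p = 0.00247 and 0.00242), or mean ratios of 1.68 and 1.87. Without UV, 1.42% of the tested genes had a larger rise in the mutant.

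The UV response of csa-1 was small beside that of its TC-NER partners. It was 0.32 ± 0.13 log2 units in lin-52 larvae and 0.44 ± 0.13 in N2 larvae (limma, adjusted p = 0.046 and 0.00873), and the difference of the UV effects was -0.12 with an interval of -0.52 to 0.28 (adjusted p = 0.714). The call in lin-52 larvae was lost in 16 of the 25 alternative analyses. Among them were fits without any 1 of N2 mock library 4, lin-52 mock libraries 2 or 3, or any of the 6 UV libraries, in which the log2 change was 0.22 to 0.34 and the limma adjusted p was 0.0535 to 0.174, the highest without lin-52 mock library 2. The ratio of csa-1 to csb-1 levels within a library averaged 0.540 in lin-52 UV, 0.204 in N2 UV, 1.20 in lin-52 mock and 0.713 in N2 mock larvae. Genes of the nearest pattern to csa-1 were sas-7, at 0.13 log2 units, and nxf-2, at 0.14, the csa-1 pattern itself having a size of 0.44.

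xpc-1 (WBGene00022296, chromosome IV, 1993089 to 2009027, plus strand) encodes the lesion sensor of GG-NER. It had 11.7, 12.2 and 11.6 scaled FPKM in the UV-treated lin-52 libraries against 16.1, 14.8 and 16.0 in the mock-treated ones, and 11.9 ± 0.38 in UV-treated N2 larvae against 15.4 ± 0.59 in mock-treated N2 larvae (SD, n = 3). All 6 UV libraries lay below all 6 mock libraries, and the strains overlapped within each treatment. xpc-1 was the single gene of the 9 that fell on UV, by 0.39 ± 0.05 log2 units in lin-52 larvae and by 0.35 ± 0.05 in N2 larvae (log2 fold changes -0.39 and -0.35, limma adjusted p = 5.73e-05 and 9.83e-05). The difference of the UV effects was -0.04 with an interval of -0.20 to 0.13.

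rad-23 (WBGene00013924, chromosome II, 11651262 to 11652729, minus strand) encodes the ubiquitin-domain partner of XPC-1, which in yeast and human cells also carries ubiquitinated proteins to the proteasome. It had 93.0, 96.1 and 93.7 scaled FPKM in the UV-treated lin-52 libraries against 97.5, 86.9 and 99.4 in the mock-treated ones, and 115, 118 and 124 in the UV-treated N2 libraries against 94.4, 98.4 and 93.8 in the mock-treated ones. Only the N2 UV libraries stood apart, above all 9 others. The UV change was -0.00 ± 0.05 log2 units in lin-52 larvae (interval -0.11 to 0.11, limma adjusted p = 0.964) and 0.32 ± 0.05 in N2 larvae (adjusted p = 0.000103), and the difference of the UV effects was -0.32 ± 0.07 (adjusted p = 0.0158). After UV rad-23 was lower in lin-52 than in N2 larvae by 0.34 log2 units (log2 fold change -0.34, adjusted p = 0.000596 by limma). Without lin-52 mock libraries 2 and 4, which had the highest ribosomal RNA share at 22.6% and 19.8%, the difference of the UV effects of rad-23 was -0.20 and the call was lost (limma, adjusted p = 0.107, an analysis chosen after the data were seen). That fit left the lin-52 mock group with 1 library, which was assumed to vary like those of the other groups, so the loss of the call cannot be told apart from the loss of replicates. The ratio of xpc-1 to rad-23 levels averaged 0.126 in lin-52 UV, 0.1002 in N2 UV, 0.165 in lin-52 mock and 0.161 in N2 mock larvae.

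**Figure D2:**
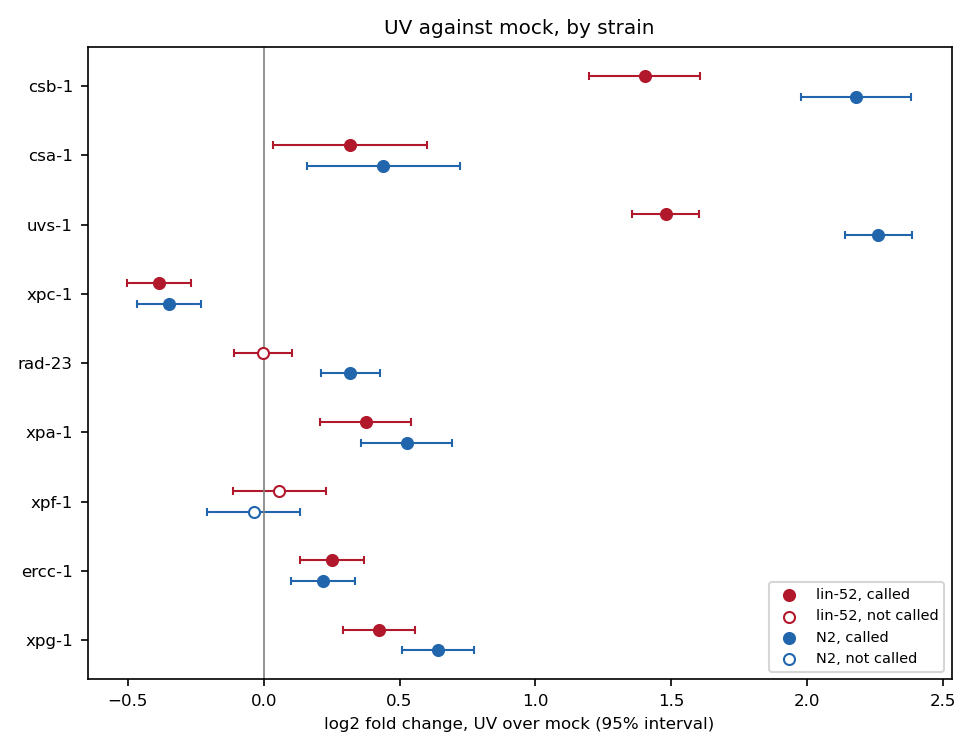
Log2 fold change of UV over mock (horizontal axis) for each gene in lin-52 larvae (upper point, red) and N2 larvae (lower point, blue), with 95% intervals from limma; filled points passed an adjusted p of 0.05. The csb-1 and uvs-1 points lie near 1.40 and 1.48 in lin-52 larvae and 2.18 and 2.26 in N2 larvae, those of xpc-1 lie below 0 in both strains, and that of rad-23 is filled in N2 larvae alone.

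xpa-1 (WBGene00006963, chromosome I, 7159714 to 7160917, plus strand) encodes the scaffold that verifies the lesion and places the nucleases. It averaged 30.0 ± 2.48 scaled FPKM in UV-treated lin-52 larvae against 22.97 ± 1.53 in mock-treated ones, and 29.5 ± 0.86 in UV-treated N2 larvae against 20.4 ± 1.75 in mock-treated ones (SD, n = 3). The UV and mock libraries of each strain did not overlap. The log2 change on UV was 0.38 ± 0.08 in lin-52 larvae and 0.53 ± 0.08 in N2 larvae (limma, adjusted p = 0.000959 and 5.58e-05). Without UV, xpa-1 was 0.17 ± 0.08 log2 units above N2 in lin-52 larvae with no overlap between the libraries, but this did not pass the test (limma, adjusted p = 0.265).

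xpg-1 (WBGene00019004, chromosome I, 6558694 to 6562346, plus strand) encodes the nuclease that cuts on the 3′ side of the lesion. It had 13.3, 12.95 and 13.1 scaled FPKM in the UV-treated lin-52 libraries against 9.68, 9.26 and 10.1 in the mock-treated ones, and 14.3, 14.3 and 15.8 in the UV-treated N2 libraries against 9.73, 9.38 and 8.84 in the mock-treated ones. Every UV library lay above every mock library, and the N2 UV libraries lay above the lin-52 UV libraries. The UV change was 0.42 ± 0.06 log2 units in lin-52 larvae and 0.64 ± 0.06 in N2 larvae (limma, adjusted p = 6.57e-05 and 1.46e-06), the largest among the core genes in each strain. The difference of the UV effects was -0.22 ± 0.09 and did not pass the test (adjusted p = 0.128), nor did the strain difference after UV (-0.17 ± 0.06, limma adjusted p = 0.0625), which reached an adjusted p of 0.0467 when no intensity trend was fitted.

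ercc-1 (WBGene00008665, chromosome I, 10030174 to 10046760, plus strand) and xpf-1 (WBGene00008140, chromosome II, 11696171 to 11705371, plus strand) encode the subunits of the nuclease that cuts on the 5′ side, ERCC-1 as the binding subunit and XPF-1 as the catalytic one. ercc-1 averaged 18.4 ± 0.78 scaled FPKM in UV-treated lin-52 larvae against 15.4 ± 0.86 in mock-treated ones, and 19.01 ± 0.44 in UV-treated N2 larvae against 16.3 ± 0.53 in mock-treated ones (SD, n = 3). It rose by 0.25 ± 0.05 log2 units in lin-52 larvae and 0.22 ± 0.05 in N2 larvae (limma, adjusted p = 0.00146 and 0.00327), with no overlap between UV and mock libraries of a strain. xpf-1 averaged 6.61 ± 0.20 scaled FPKM in UV-treated lin-52 larvae against 6.34 ± 0.28 in mock-treated ones, and 6.55 ± 0.25 in UV-treated N2 larvae against 6.75 ± 0.66 in mock-treated ones (SD, n = 3). Its libraries overlapped in every comparison, and the intervals of its UV change were -0.11 to 0.23 log2 units in lin-52 larvae and -0.21 to 0.13 in N2 larvae. Within a library the ratio of xpf-1 to ercc-1 levels averaged 0.359 in lin-52 UV, 0.344 in N2 UV, 0.412 in lin-52 mock and 0.413 in N2 mock larvae.

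Read against all tested genes, the members' counts differ in weight. For the absence of overlap between libraries, given above for single genes, no share of all tested genes was computed. On UV, 6 of the 9 rose and 1 fell in lin-52 larvae, where 33.1% of all tested genes rose and 33.5% fell, and 7 rose and 1 fell in N2 larvae, where 36.6% rose and 37% fell. The median log2 change of the 9 was 0.32 in lin-52 and 0.44 in N2 larvae, beside 0.00 over all tested genes in each strain. The scaling itself sets that 0.00. With FPKM as deposited the median over all tested genes was 0.059 in lin-52 and 0.053 in N2 larvae. It was 0.081 and 0.074 at equal sums, and -0.036 and -0.044 with quantile normalization. Most of the changes of the 9 genes were small for this dataset. The rises of csb-1 and uvs-1 were exceeded by 4.36% and 3.91% of the tested genes in lin-52 larvae and by 2.50% and 2.24% in N2 larvae, while that of xpg-1, the next largest in both strains, was exceeded by 23.3% and 19.3%.

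**Figure D3:**
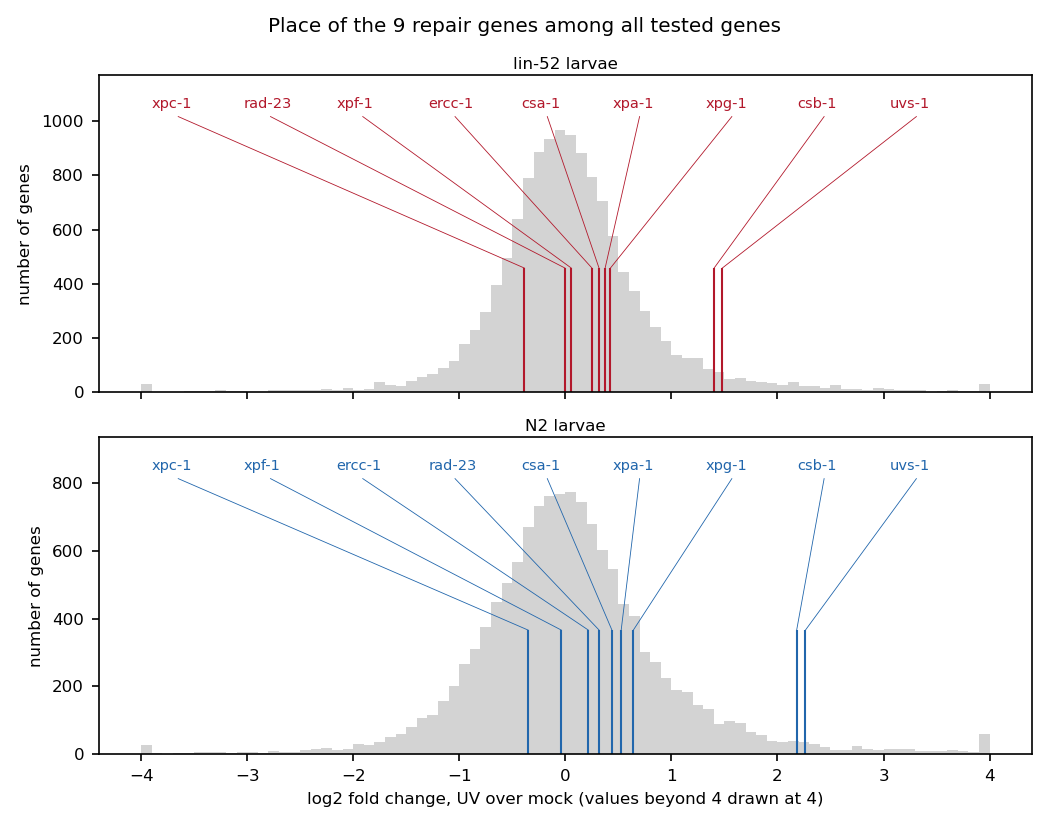
Number of tested genes (vertical axis) by log2 fold change of UV over mock (horizontal axis, bins of 0.1, values beyond 4 drawn at 4) in lin-52 larvae (top) and N2 larvae (bottom), with the 9 repair genes marked by lines. csb-1 and uvs-1 lie in the right tail of both panels, and the other 7 lie between -0.39 and 0.64.

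Between the strains, 1 of the 9 genes was higher in lin-52 than in N2 larvae without UV (csa-1) and 0 were lower, beside 3.59% and 1.74% of all tested genes. At an unadjusted p under 0.05 xpa-1 would have been called as well, and no gene of the 9 in the lower direction. The share of all tested genes at that looser threshold was not computed, so whether xpa-1 exceeds the background there cannot be told. After UV 1 was higher (csa-1) and 3 were lower (csb-1, uvs-1 and rad-23), beside 13% and 15.2%. These background shares moved with scaling, while the numbers of members called stayed as given: the share of all tested genes that was lower in lin-52 larvae was 0.844% without UV and 11.2% after UV with FPKM as deposited, and 0.72% and 9.73% with libraries brought to equal sums. The UV effect differed between the strains for 3 of the 9, all in the negative direction, beside 6.2% of all tested genes in that direction and 5.44% in the other. The 3 with a smaller effect in lin-52 larvae were csb-1, uvs-1 and rad-23, the last from GG-NER.

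**Figure D4:**
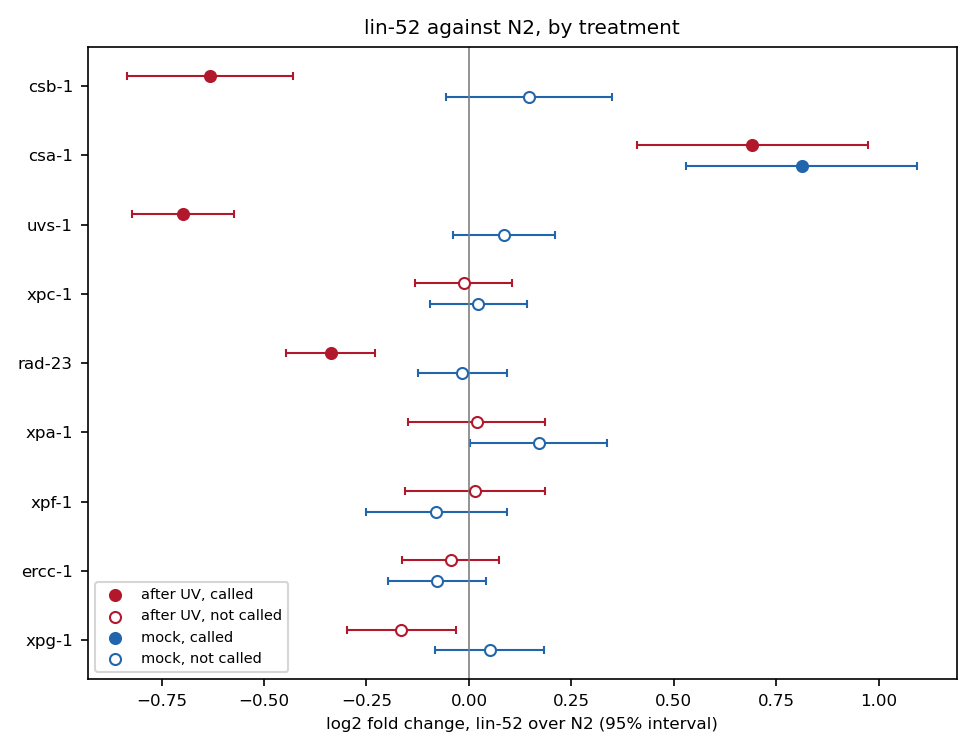
Log2 fold change of lin-52 over N2 (horizontal axis) for each gene after UV (upper point, red) and after mock treatment (lower point, blue), with 95% intervals from limma; filled points passed an adjusted p of 0.05. Both csa-1 points are filled and lie at 0.69 and 0.81, and csb-1, uvs-1 and rad-23 lie at -0.63, -0.70 and -0.34 after UV with open points near 0 after mock treatment.

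The order of the 9 genes by level (mean scaled FPKM, a level per length) was led by rad-23 in every group. In UV-treated lin-52 larvae it was rad-23, xpa-1, uvs-1, ercc-1, csb-1, xpg-1, xpc-1, csa-1 and xpf-1, in which csb-1 and xpg-1 overlapped. In UV-treated N2 larvae uvs-1 stood at position 2, above xpa-1, and csb-1 at position 4, followed by ercc-1, with which it overlapped, then xpg-1, xpc-1, xpf-1 and csa-1. In mock-treated N2 larvae the order was rad-23, xpa-1, ercc-1, xpc-1, xpg-1, uvs-1, xpf-1, csb-1 and csa-1, with overlap between ercc-1 and xpc-1 and between uvs-1 and xpf-1. In mock-treated lin-52 larvae xpc-1 stood before ercc-1 and csa-1 before csb-1, and the members of each of these pairs overlapped, as did xpf-1 and csa-1. Without UV the 3 TC-NER genes were thus among the 4 lowest of the 9, and after UV csb-1 and uvs-1 were not.

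Other genes of the pathway were counted from lists. The counts on UV stand beside 33.1% of all tested genes rising and 33.5% falling in lin-52 larvae. In N2 larvae these shares were 36.6% and 37%. Of 10 genes of TFIIH, the helicase and kinase complex that opens the DNA around the lesion, 6 rose and 3 fell on UV in lin-52 larvae and likewise in N2 larvae. Those that rose most were cyh-1, the cyclin H gene, with log2 changes of 1.19 in lin-52 and 1.69 in N2 larvae, and cdk-7, its kinase, with 0.77 and 1.17 (limma, adjusted p at most 4.90e-08). The UV effects of both were smaller in lin-52 larvae, by 0.50 for cyh-1 and 0.40 for cdk-7 (differences -0.50 and -0.40, limma adjusted p = 0.00794 and 0.00547). The helicase gene xpd-1 fell in both strains, at -1.46 in lin-52 and -1.45 in N2 larvae, whereas xpb-1, the other helicase gene, rose by 0.51 and 0.73 (limma, adjusted p at most 9.49e-06).

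All 3 genes of the CUL4 ubiquitin ligase with which CSA-1 works rose on UV in N2 larvae and 1, ddb-1, rose in lin-52 larvae. ddb-1, the adaptor gene, rose by 0.62 in lin-52 and 0.83 in N2 larvae, a difference of -0.21 (limma, adjusted p = 0.0236). For cul-4 and rbx-1 the differences of the UV effects, -0.14 and -0.18, did not pass the test (limma, adjusted p = 0.18 and 0.124). Of the 6 genes tested from a list of other factors that act at the stalled polymerase, 4 rose and 0 fell in lin-52 larvae and 4 rose and 1 fell in N2 larvae. The largest rise there was that of ama-1, which encodes the largest subunit of RNA polymerase II, at 1.25 and 1.42. In lin-52 larvae the fall of mms-19 was -0.10 and did not pass the test (limma, adjusted p = 0.0841), the value in N2 larvae being -0.15.

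The genes for the last step, gap filling and sealing, went the other way: of 12, 10 fell and 1 rose on UV in each strain. The largest falls were those of pole-1, the catalytic subunit of DNA polymerase epsilon, and rfc-2, of the clamp loader, at -0.67 each in lin-52 larvae, and of pcn-1, the sliding clamp PCNA, at -0.95 in N2 larvae. Between the strains, 4 of the 12 were higher in lin-52 larvae without UV and 7 after UV, and 0 were lower in either. The other lists leaned lower in lin-52 larvae after UV. Of 10 TFIIH genes 0 were higher and 6 lower, of 3 ligase genes 0 and 2, and of 6 in the polymerase list 0 and 3. Without UV, 1 TFIIH gene was higher and no other gene of these lists was called. Of all tested genes, 3.59% were higher and 1.74% lower without UV, and 13% and 15.2% after UV. lig-1, a DNA ligase gene, was 0.80 log2 units higher in lin-52 than in N2 larvae after UV and 0.79 higher without UV (limma, adjusted p = 5.22e-07 and 5.47e-07). The UV effect on pcn-1 was the one in the gap-filling list that differed between strains, at 0.35 (limma, adjusted p = 0.00716). Median log2 changes on UV were 0.16 in lin-52 and 0.26 in N2 larvae for TFIIH, and 0.10 and 0.27 for the ligase. They were 0.26 and 0.43 for the polymerase list and -0.25 and -0.30 for gap filling. Over all tested genes the median was 0.00, a value set by the scaling.

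**Figure D5:**
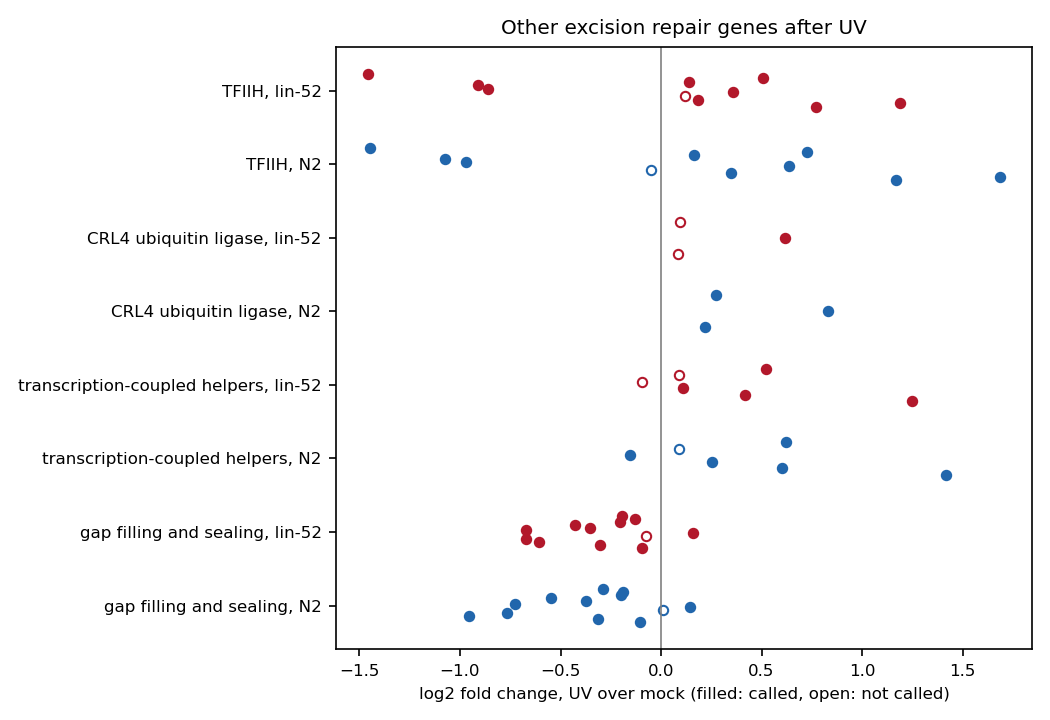
Log2 fold change of UV over mock (horizontal axis) for the genes of 4 lists of other excision repair factors, with lin-52 larvae (red) above N2 larvae (blue) for each list; a point is a gene, filled where the adjusted p of limma was below 0.05. TFIIH genes lie on both sides of 0, and 10 of the 12 gap-filling genes are filled and below 0 in each strain.

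Markers of cell types moved with both factors, and their part in the values of the 9 genes was not tested. With UV, all 6 body wall muscle markers fell in both strains, with summed levels of 2193 to 2338 FPKM in lin-52 UV against 2915 to 3162 in lin-52 mock larvae and 2044 to 2208 in N2 UV against 3303 to 3407 in N2 mock larvae, none of them at 0. Of 6 neuron markers, 5 fell and 0 rose in lin-52 larvae (sums of 302 to 331 FPKM in UV against 375 to 388 in mock larvae), and 4 fell and 1 rose in N2 larvae (351 to 365 against 395 to 409). Of 5 tested hypodermis markers, 1 rose and 1 fell on UV in lin-52 larvae, and 1 rose and 2 fell in N2 larvae. The collagen gene dpy-7 had log2 changes of -5.65 in lin-52 and -5.94 in N2 larvae. In contrast nhr-25 rose by 0.54 and 0.46, and elt-1 and elt-3 were called in neither strain. The hypodermis list summed to 113 to 123 FPKM in lin-52 UV against 172 to 208 in lin-52 mock larvae. In N2 larvae the sums were 114 to 120 with UV against 170 to 193 in mock larvae, and rol-6 was below the test filter. Of 5 tested intestine markers, 3 rose and 1 fell on UV in each strain (elt-2 by 0.70 in lin-52 and 0.77 in N2 larvae), the sums overlapping between UV and mock in N2 larvae alone (4367 to 4480 FPKM in lin-52 UV against 4250 to 4355 in lin-52 mock and 4348 to 4679 in N2 UV against 4361 to 4675 in N2 mock larvae), and act-5 was listed at 0. Of 5 pharynx markers, 2 rose and 1 fell in lin-52 larvae (sums of 512 to 826 FPKM in UV against 518 to 529 in mock larvae), and 2 rose and 2 fell in N2 larvae (700 to 711 against 555 to 855). The median sums were 554 against 526 in lin-52 larvae and 701 against 560 in N2 larvae. These sums include myo-1, which varied widely between libraries and was not called. Its log2 changes were 3.06 ± 2.58 in lin-52 and 5.82 ± 2.58 in N2 larvae (SE).

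Germline markers moved with UV and with the strain. Of the 9 tested, 3 rose and 0 fell on UV in lin-52 larvae, and 6 rose and 0 fell in N2 larvae. The UV effect differed between the strains for 0 of the 9 by the direct test. With the strain, 4 of the 9 tested germline markers (glh-1, pgl-1, pgl-3 and him-3) were higher in lin-52 larvae in both treatments, with summed levels over the whole list of 164 to 178 FPKM in lin-52 UV against 97.5 to 107 in N2 UV larvae and 137 to 151 in lin-52 mock against 84.3 to 88.4 in N2 mock larvae. The defining marker nos-2 averaged 0.285 FPKM and was not tested. The oocyte and embryo genes oma-1 and pos-1 rose on UV, with log2 changes of 0.89 and 1.29 in lin-52 and 1.36 and 1.54 in N2 larvae (limma, adjusted p at most 0.00143). After UV oma-1 was lower in lin-52 than in N2 larvae (-0.64, limma adjusted p = 0.0204). Both levels were low, as oma-1 averaged 1.11 FPKM and pos-1 2.43, close to the test filter of 1. The UV groups, in which both genes were higher, counted toward these averages. The list of oma-1 and pos-1, vit and msp-3 genes included, summed to 3.996 to 4.58 FPKM in lin-52 UV against 0.945 to 2.68 in lin-52 mock larvae and 6.14 to 7.86 in N2 UV against 1.82 to 1.98 in N2 mock larvae. The yolk genes vit-1 to vit-6 averaged at most 0.0491 FPKM and the sperm gene msp-3 was listed at 0 in every library.

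Neighbouring genes could add reads where exons overlap, since the sources do not say whether counting used strand. Of the 9 genes, ercc-1 alone shares exon bases with another gene, 5 of them with nubp-1 on the same strand, which averaged 86.4 scaled FPKM in lin-52 UV, 97.2 in N2 UV, 56.4 in lin-52 mock and 60.3 in N2 mock larvae. The opposite-strand genes ncs-2 and inos-1 lie within or across the spans of ercc-1 and xpf-1 and share no exon base with them. No gene overlaps csb-1, uvs-1 or csa-1.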

How the data were processed

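Total RNA of 12 pools of L1 larvae (4 groups of 3, called biological replicates by the study, so p-values measure the spread between these pools) was depleted of ribosomal RNA and made into stranded libraries. Of 4 RNA samples per condition 3 were chosen by the authors, so library numbers run up to 4. Per the paper's methods and the labels, the authors aligned reads of 75 bases with Tophat 2.0.10 on Ensembl 85 gene models and computed the deposited FPKM values with Cufflinks 2.1.1. The genome build and the strand setting are not given in the sources used here. DESeq2 was the tool of the authors for testing genes. FPKM are not counts, so limma stood in.

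Deposited FPKM were scaled by median-ratio size factors over the 14130 protein-coding genes that no library listed at 0. Tested genes were protein-coding (Ensembl 115, WBcel235; 45990 of 46245 identifiers matched) and averaged at least 1 FPKM. The value log2(scaled FPKM + 0.5), which understates changes of low genes, was fitted with 4 group means over all 12 libraries by limma 3.58.1 in R 4.3.3, with an intensity trend. P-values are two-sided and moderated, adjusted by Benjamini-Hochberg over the 12913 genes of each contrast and called below 0.05; intervals are 95% intervals of single genes. Named genes are the 9 members, genes of 4 pathway lists (called in at least 1 comparison), the 2 genes of nearest pattern, lin-52 and cell type markers. Members and lists were chosen with earlier results of these data known; of 80 list entries 1 was unmatched. Scripts were tested on simulated data. Promoter motifs and sequences were not analysed here.

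The alternatives were other scalings, pseudocounts of 0.1 and 1, no filter or 5 FPKM, all biotypes, other variance settings, a replicate block, only the 6 libraries compared, each library left out and, added after seeing the data, the 2 libraries of highest ribosomal RNA share left out.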

Additional observations from a re-analysis of the deposited data

Results flagged for a closer look

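The response to UV-B differed between lin-52 and N2 larvae for 7 of 40 genes, beside 11.6% of all tested genes. These 7 were 3 of the 9 recognition and incision genes and 4 of the 31 from the pathway lists. The lists also hold general factors such as ama-1 of RNA polymerase II. The test was of the difference itself (UV effect in lin-52 minus UV effect in N2, log2 units, limma adjusted p below 0.05). Among the recognition and incision genes the differences were -0.78 for csb-1, -0.78 for uvs-1 and -0.32 for rad-23, a call that was lost (-0.20) when lin-52 mock library 3 was the single library left in its group. Among the other genes they were -0.40 for cdk-7 and -0.50 for cyh-1, both of TFIIH, -0.21 for ddb-1 of the CUL4 ligase and 0.35 for pcn-1. In csb-1, uvs-1, cdk-7, cyh-1 and ddb-1 both strains rose and lin-52 larvae rose less, in rad-23 N2 larvae alone passed the test of a rise, and in pcn-1 both strains fell and lin-52 larvae fell less.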

How the results depend on the processing

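Of 23 calls among the 9 genes, 21 were kept in every one of the 25 alternatives that could be run for them. The exceptions were csa-1 on UV in lin-52 larvae and, without lin-52 mock libraries 2 and 4, the difference of UV effects of rad-23 (log2 -0.20). Leaving out those 2 libraries, the pair of highest ribosomal RNA share, left 1 in their group, which was assumed to vary like the other groups. Counts of all genes called moved by over 1.5 times in 2 comparisons. For lin-52 against N2 without UV, 688 genes became 414 with the replicate block, 318 without those 2 libraries, and 443 to 792 with 1 library left out (443 without N2 mock library 1). For the difference of UV effects, 1503 became 837 with the replicate block, 516 without those 2 libraries, and 824 to 2186 with 1 left out (954 without N2 mock library 1, 842 and 972 without N2 UV libraries 2 and 3, 913 and 824 without lin-52 UV libraries 3 and 4). Paired numbers are not stated to mark a shared origin, and deviations of same-numbered libraries correlated at -0.16 to 0.25 (3 of 13 above 0.1), so the block served as an alternative alone.

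The split into higher and lower calls moved with scaling: without UV 463 and 225 as reported, 542 and 109 with FPKM as deposited, 574 and 93 at equal sums; after UV 1673 and 1964, against 2108 and 1448 or 2247 and 1257. Signs turned only for values that were not called. Without UV these were rad-23 (0.020 as deposited, 0.032 at equal sums, 0.026 with quantiles, -0.052 to 0.044 with 1 library left out), xpc-1 (-0.0070 to 0.061) and, without the 2 libraries, xpc-1 at -0.052 and xpg-1 at -0.0076. After UV they were xpc-1 (0.024 as deposited, 0.037 at equal sums, 0.013 with the replicate block, -0.037 to 0.0069), xpf-1 (-0.020 with quantiles, -0.046 with the block, -0.014 to 0.038), ercc-1 (0.0061 at equal sums) and xpa-1 (-0.032 to 0.084). For UV in N2 larvae xpf-1 gave 0.013 as deposited, 0.034 at equal sums and -0.076 to 0.037. For UV in lin-52 larvae rad-23 gave 0.054 as deposited, 0.077 at equal sums, 0.0045 with quantiles, 0.12 without the 2 libraries and -0.062 to 0.034, and xpf-1 gave -0.0093 with quantiles. For the difference of UV effects ercc-1 gave -0.011 to 0.064 and xpc-1 0.039 without the 2 libraries. The cause was not tested. Depth in reads is unknown, so no counting interval is given.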
